A study of Mus musculus with 2 samples.

Results

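The transcripts followed here are those of 7 transcription factors and 1 cytokine receptor chain that set or mark the identity of T cells and innate lymphoid cells (ILCs): Gata3, Rora, Foxp3, Tcf7, Tbx21, Bcl11b, Id2 and Il2ra, 8 of the 32285 genes in the deposited matrices. They are picked out by gene symbol, from a set drawn up with earlier results of these data known, and were read in cells of perigonadal white adipose tissue (gWAT) that carry T cell or ILC2 transcripts. A T cell gate took every cell with a unique molecular identifier (UMI) of Cd3d, Cd3e or Cd3g, the invariant chains of the T cell receptor complex, and these are called Cd3+ cells. A type 2 gate took cells with no Cd3 UMI and with UMIs of 2 or more of 6 genes (Il5, Il13, Il1rl1, Areg, Il17rb and Il7r), which code for cytokines and receptors of type 2 lymphocytes, and these are called type 2 gate cells. The Cd3+ gate held 162 of 10216 cells from lean mice and 211 of 8537 cells from obese mice, and the type 2 gate 126 and 143.

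The mice were male Cyp1a1 fate reporters (Cyp1a1Cre x R26LSL-eYFP), in which Cre is made wherever Cyp1a1 is transcribed and leaves a lasting eYFP mark in cells with present or past Cyp1a1 activity; Cyp1a1 is a classical target of the aryl hydrocarbon receptor (AHR). One group ate a low-fat diet (LFD, 10% fat) and the other a high-fat diet (HFD, 60% fat), each for 12 weeks, and both were given 10 mg/kg of FICZ, an AHR agonist, 5 days before tissue was taken, so that neither group is free of the agonist. Live eYFP+ cells were sorted by flow cytometry from the stromal vascular fraction and sequenced as 1 droplet library (10x 3′ v3) per diet, from pooled mice. The labels give no age, and the methods of the study name a range of 6 to 10 weeks for mice entering a diet. With 1 library per diet there is no replicate, so no test was made and the 95% intervals below cover counting error only.

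GATA3 and RORα are required for type 2 ILCs (ILC2s), and GATA3 also drives T helper 2 cells and is used by regulatory T cells of tissues. FOXP3 defines regulatory T cells, T-bet (Tbx21) defines type 1 lymphocytes, TCF1 (Tcf7) marks early, naive and memory T cells and ILC progenitors, BCL11B fixes T cell commitment and is kept by ILC2s, ID2 blocks E proteins and is needed by all ILCs, and Il2ra codes for CD25, the IL-2 receptor α chain of regulatory T cells and ILC2s. Lean adipose tissue is known for resident ILC2s and for regulatory T cells that carry the IL-33 receptor, encoded by Il1rl1.

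Because the cells were chosen by an AHR target gene, the RefSeq promoter windows of the 8 genes (GRCm38.p6, 250 bases before to 50 bases after each start, 10 windows) were read for the AHR response element core, GCGTG or CACGC on the other strand, and for the GATA motif AGATAA or TTATCT. The AHR core was in 3 of the 10 windows, 2 of Foxp3 and 1 of Rora, and 32.4% of all 32851 windows hold it. The GATA motif was in 1 window, a Foxp3 one, and 11.2% of all windows hold it. These are matches of letters only. The 4 stretches are printed 5′ to 3′ on the plus strand with the match in capitals, and the last 2 overlap, so that in the Foxp3 window both motifs stand side by side.
Rora, chr9:68653609-68653633, 167 bases before the start: ctcggccgcaCACGCgtccaccgcc
Foxp3, first window, chrX:7579611-7579635, 55 bases before the start: ctgcggcttcCACGCcgtggttttt
Foxp3, other window, chrX:7580420-7580444, 53 bases before the start: ctgcttgtgtCACGCaagataacac
Foxp3, the same window, chrX:7580426-7580451, 47 bases before the start: gtgtcacgcaAGATAAcaccctcagt

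In the GRCm38 annotation (GENCODE M21) all 8 are protein-coding genes. Gata3 (ENSMUSG00000015619) lies at chr2:9857078-9890034 and Il2ra (ENSMUSG00000026770) at chr2:11642807-11693193 of the same chromosome. Id2 (ENSMUSG00000020644) lies at chr12:25093799-25097140 and Bcl11b (ENSMUSG00000048251) at chr12:107910403-108003602. Tcf7 (ENSMUSG00000000782) lies at chr11:52252371-52283014 and Tbx21 (ENSMUSG00000001444) at chr11:97098071-97115331. Rora (ENSMUSG00000032238) spans chr9:68653786-69388246, and Foxp3 (ENSMUSG00000039521) spans chrX:7573644-7595245.

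The libraries held 114311020 UMIs in 11281 barcodes (LFD) and 119498750 UMIs in 9631 barcodes (HFD), and the cells kept had a median of 10636.5 and 13231 UMIs. The libraries shared 27 barcodes, of which 2 were in LFD type 2 gate cells and 2 in HFD Cd3+ cells, and none was in the same gate in both. The Cd3+ gate took 1.59% (95% interval 1.35 to 1.85) of the cells in LFD and 2.47% (2.15 to 2.82) in HFD. Type 2 gate cells were 1.23% (1.03 to 1.47) and 1.68% (1.41 to 1.97). Both shares were higher in the HFD library, and the intervals overlapped for the type 2 gate only.

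Many gate cells also met the marker rule of another cell class. This was so for 63 of 162 LFD Cd3+ cells (38.9%), which held 68.3% of the gate's UMIs, and for 131 of 211 HFD Cd3+ cells (62.1%), which held 88.6% of them. It was so for 34 of 126 LFD type 2 gate cells (27.0%, with 48.3% of UMIs) and for 53 of 143 HFD ones (37.1%, with 68.6%). In the HFD Cd3+ gate, 92 cells (43.6%) met the plasma cell rule (3 or more of Tnfrsf17, Derl3, Mzb1, Jchain, Pou2af1 and Txndc5), had a median of 14985.5 UMIs and held 67.6% of the gate's UMIs. In the LFD Cd3+ gate 18 cells (11.1%) met it, with 17.1% of the UMIs. Of the 92, Cd3g gave a UMI in 86, Cd3d in 14 and Cd3e in 6. Cells meeting the stromal and mesothelial rule were 26 in the LFD and 30 in the HFD type 2 gate, with 38.8% and 50.2% of its UMIs. The levels and ratios of the members between gates and diets are therefore given for all gate cells and for gate cells of one lineage, meaning those that met no other class rule (natural killer markers aside), and the splits of the Cd3+ gate for cells of one lineage.

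**Figure D1:**
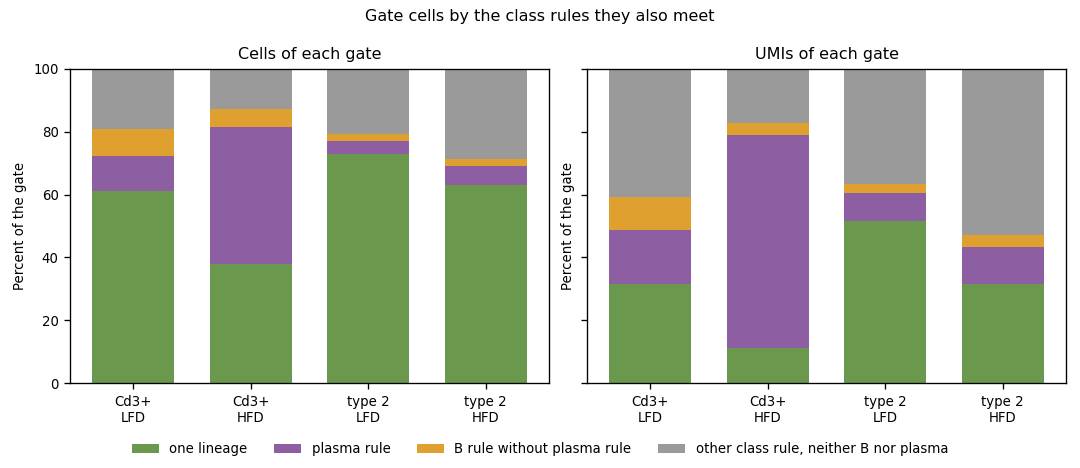
Composition of the Cd3+ and type 2 gates in each library, as a percentage of cells (left) and of UMIs (right): cells of one lineage (green), of the plasma rule (purple), of the B but not the plasma rule (orange) and of another class rule (grey). Plasma-rule cells were 43.6% of HFD Cd3+ cells against 11.1% of LFD Cd3+ cells.

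Of one lineage there were 99 LFD and 80 HFD Cd3+ cells (0.969%, 0.788 to 1.18, and 0.937%, 0.744 to 1.16, of all cells), and 92 and 90 type 2 gate cells (0.901%, 0.727 to 1.10, and 1.05%, 0.849 to 1.29). The shares of the diets overlapped in both gates. These cells were shallower, with median UMIs of 2598 (LFD) and 2149.5 (HFD) in the Cd3+ gate and 4349.5 and 3802 in the type 2 gate. Ptprc, the pan-leukocyte CD45, gave a UMI in 86.9% and 83.8% of Cd3+ and in 73 of 92 and 72 of 90 type 2 gate cells of one lineage. Trbc2, a T cell receptor β constant gene, gave one in 82 of 99 LFD and 64 of 80 HFD Cd3+ cells of one lineage, and Trac, the α constant gene, in 37.4% and 32.5%. In the type 2 gate Trac gave 4 counts in LFD and 0 in HFD, and Cd8a and Cd8b1 gave 0 in both, whereas Trbc2 was found in 72 of 92 and 63 of 90 cells. The type 2 gate was thus low in Trac and free of CD8 transcripts but not of Trbc2. Cyp1a1 itself gave a UMI in 8.08% and 6.25% of these Cd3+ cells and in 5.43% and 3.33% of these type 2 gate cells.

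The members that define ILC2s were highest in the type 2 gate. Gata3 was at 154 CPM (counts scaled to a total of 1000000 UMIs over the pooled cells of a gate) in LFD and 66.4 in HFD Cd3+ cells, against 455 and 469 in type 2 gate cells. Among cells of one lineage it was at 354 (295 to 421) and 374 (301 to 460) in the Cd3+ gate, against 740.1 (668 to 818) and 1189.7 (1080.0 to 1307) in the type 2 gate. In both libraries and both sets of cells the type 2 gate thus held the higher Gata3 level, with no overlap of intervals. The ratio of Cd3+ to type 2 gate cells was 0.337 (0.282 to 0.403) in LFD and 0.142 (0.117 to 0.171) in HFD, or 0.478 (0.388 to 0.586) and 0.315 (0.248 to 0.395) in cells of one lineage. All 4 ratios were past 2-fold.

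Rora followed the same order with a smaller gap. It was at 235 and 130.0 CPM in LFD and HFD Cd3+ cells and at 509 and 551 in type 2 gate cells, a ratio of 0.461 (0.396 to 0.536) and 0.236. Within one lineage the levels were 555 and 794 against 769 and 1341, a ratio of 0.721 (0.605 to 0.857) and 0.592 (0.498 to 0.701), so the difference exceeded counting error but no longer reached 2-fold.

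Id2 and Il2ra were also higher in the type 2 gate. Id2 was at 173 and 79.5 CPM in Cd3+ cells against 318 and 260.3, and in cells of one lineage at 371 and 383 against 475 and 533, a ratio of 0.781 (0.628 to 0.968) and 0.718 (0.555 to 0.925). One HFD Cd3+ cell held 26 of the 93 Id2 counts (28.0%) of that set, and without it the HFD ratio was 0.535 (0.399 to 0.711). Without the type 2 gate cell with the most Id2 counts the ratio was 0.834 (0.668 to 1.04) in LFD and 0.784 (0.603 to 1.01) in HFD. The Id2 gap in cells of one lineage was then within counting error. Il2ra was at 115 and 47.2 CPM in Cd3+ cells against 236 and 178. Within one lineage it was at 279 and 206 against 378 and 483, a ratio of 0.738 (0.574 to 0.944) in LFD and 0.426 (0.305 to 0.586) in HFD, of which the HFD one was past 2-fold. Of the 2 gates, the Cd3-free one thus held more of the CD25 transcript in each library.

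Bcl11b, shared by both lineages, did not differ between the gates beyond counting error in cells of one lineage. It was at 145 and 239 CPM in the Cd3+ gate and at 120.1 and 232 in the type 2 gate, a ratio of 1.21 (0.818 to 1.77) in LFD and 1.03 (0.723 to 1.46) in HFD. Over all gate cells the ratio was 0.787 (0.556 to 1.11) in LFD and 0.390 in HFD.

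The T cell members went the other way. Tcf7 was at 31.8 and 30.9 CPM in Cd3+ cells and at 6 counts and 12.1 CPM (14 counts) in type 2 gate cells, a ratio of 5.29 (2.21 to 15.4) in LFD and 2.54 (1.41 to 4.90) in HFD. In cells of one lineage it was at 83.6 and 197 against 7.75 and 24.8, a ratio of 10.8 (3.80 to 42.2) and 7.95 (3.86 to 18.4). A single HFD type 2 gate cell held 4 of the 14 counts and of the 9 in cells of one lineage, and without it the latter ratio was 14.2 (5.67 to 45.6). Foxp3 was at 47.7 and 20.1 CPM in Cd3+ cells, against 3.00 (3 counts) and 0 counts in type 2 gate cells, a ratio of 15.9 (5.15 to 79.4) in LFD and at least 7.73 in HFD over a floor of 3 counts in the gate (lower limit from counting error 6.02). Among cells of one lineage Foxp3 was at 139 (103 to 184) and 111 (73.2 to 162), 24.0 times (7.75 to 120.2) the type 2 gate level in LFD and at least 13.4 times in HFD (lower limit 10.2). Tbx21 gave 7 counts (6.18 CPM) in LFD and 3 counts (1.40 CPM) in HFD Cd3+ cells and none in either type 2 gate, which is under the 20 counts needed for a call. Counting error alone puts the lower limit of its ratio at 1.27 in LFD, and no ratio can be given in HFD.

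**Figure D2:**
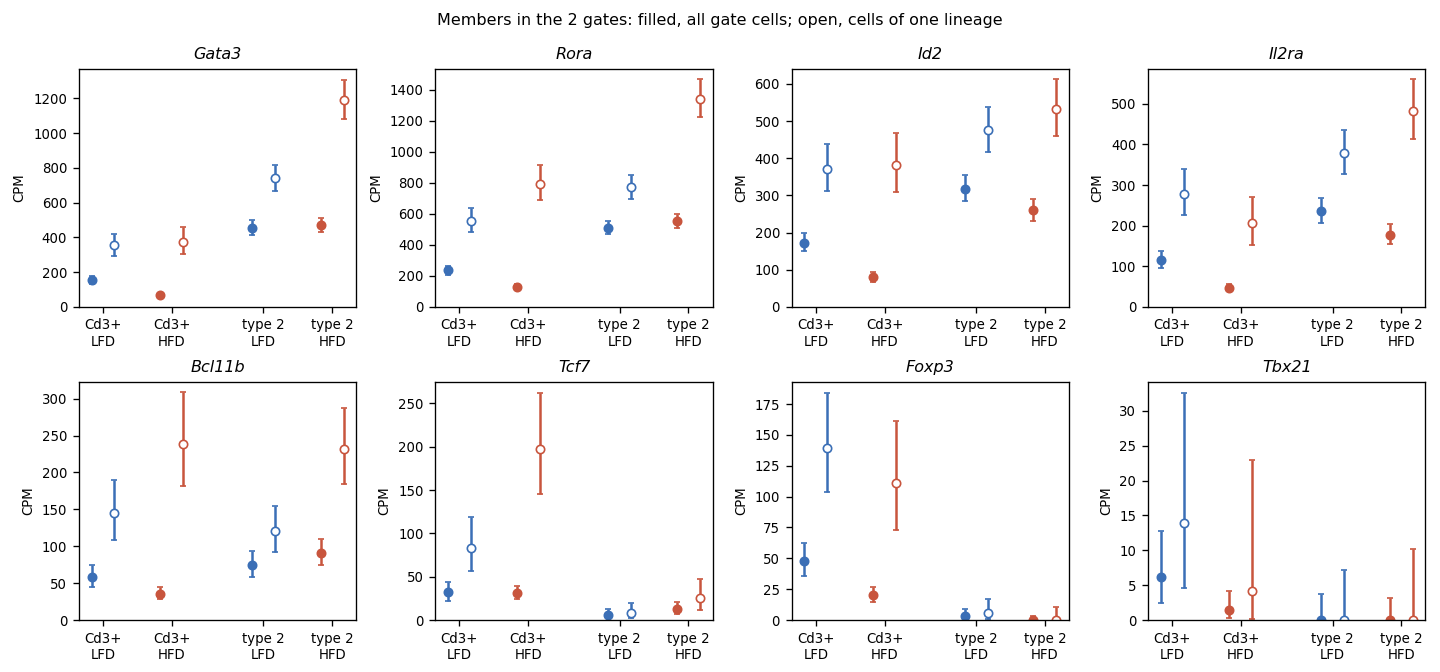
CPM of each of the 8 genes in Cd3+ and type 2 gate cells of the LFD (blue) and HFD (red) libraries, for all gate cells (filled) and cells of one lineage (open), each gene on its own linear axis from 0; bars are exact 95% Poisson intervals, counting error only. Gata3 was higher in the type 2 gate and Foxp3 and Tcf7 were higher in the Cd3+ gate, in each library.

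Taking a 2-fold CPM ratio among genes with at least 20 counts as a call, 5 of the 7 members with enough counts (Tbx21 had too few) were past it in LFD, 2 higher (Tcf7 and Foxp3) and 3 lower (Gata3, Rora and Il2ra) in Cd3+ cells, against 8.81% of all 8375 genes (4.92% higher, 3.89% lower). In HFD all 7 were past it, 2 higher and 5 lower, against 26.6% of 9456 genes. There the median of all genes was itself shifted by -0.34 on the log2 scale, with 6.68% of genes higher and 19.9% lower, and with median-ratio scaling these shares were 10.7% and 11.7%. In cells of one lineage 3 members (Tcf7 and Foxp3 higher, Gata3 lower) were past 2-fold in LFD against 11.2% of genes (7.07% higher, 4.13% lower), and 4 (the same 3 and Il2ra, lower) in HFD against 14.7% (7.93% higher, 6.81% lower). The share of cells from other classes moved with the HFD count, and its part was not tested.

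By cells rather than levels, a Gata3 UMI was seen in 84 of 92 LFD and 81 of 90 HFD type 2 gate cells of one lineage (91.3% in LFD), and a Rora UMI in 92.4% and 96.7%. Among Cd3+ cells of one lineage these shares were 42.4% and 35.0% for Gata3 and 60.6% and 57.5% for Rora. With each cell thinned to 2000 UMIs, which left out 40 LFD and 39 HFD Cd3+ cells and 4 and 6 type 2 gate cells, the Gata3 shares were 73.9% and 81.0% in the type 2 gate and 50.8% and 41.5% in the Cd3+ gate. The thinned Rora shares were 77.3% (67.1 to 85.5) against 54.2% (40.8 to 67.3) in LFD and 82.1% (72.3 to 89.6) against 73.2% (57.1 to 85.8) in HFD, with overlapping intervals in both. Thinned to 1000 UMIs, which kept 93 of 99 LFD and 74 of 80 HFD Cd3+ cells and every type 2 gate cell, they were 51.1% (40.4 to 61.7) against 35.5% (25.8 to 46.1) in LFD and 78.9% (69.0 to 86.8) against 45.9% (34.3 to 57.9) in HFD. The type 2 gate had the higher Rora share at both depths, and the size of the HFD gap changed with the depth. Foxp3 was seen in 25 of 99 LFD (25.3%) and 17 of 80 HFD (21.2%) Cd3+ cells of one lineage, and in 15.3% and 7.32% after thinning. In the type 2 gate it was seen in 3 of 92 LFD cells and in 0 of 90 HFD cells, which allows up to 3.33% of cells with a UMI (3 counts of the total; 4.02% by the exact interval) and sets no limit on cells that express it. Bcl11b was seen in 41.4% and 51.2% of Cd3+ and in 42.4% and 55.6% of type 2 gate cells of one lineage. After thinning the order of the gates turned, to 27.1% (16.4 to 40.3) against 18.2% (10.8 to 27.8) in LFD and 36.6% (22.1 to 53.1) against 32.1% (22.4 to 43.2) in HFD, with overlapping intervals, as at 1000 UMIs (15.1% against 13.0% and 27.0% against 11.1%), so no order is read from the Bcl11b shares. Tcf7 was seen in 21.2% and 26.2% of Cd3+ cells against 4.35% and 4.44% of type 2 gate cells. After thinning the Tcf7 shares were 13.6% and 19.5% against 3.41% and 4.76%, and the order of the gates was kept, with overlapping intervals in both libraries.

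The level outside the gates set the background of each gene, over B, plasma, macrophage, dendritic, endothelial and stromal cells chosen by marker rules. Foxp3 and Bcl11b were at 0 counts in B, plasma, macrophage, dendritic and endothelial cells of both libraries, and in stromal cells Foxp3 gave 2 counts in LFD and 1 in HFD. In stromal cells, deeper than the gates at a median of 12473 and 16328 UMIs, Bcl11b was seen in 0.795% (LFD) and 0.896% (HFD) of cells, and in 0.100% and 0.0829% after thinning. Gata3 stayed at or under 2.15 CPM in these LFD classes and at or under 4.51 CPM in the HFD ones, the highest being endothelial cells in both. A neutrophil class with enough cells only in LFD, and very shallow, gave 1 Gata3 count. Gata3, Foxp3 and Bcl11b were thus close to absent outside the lymphoid gates.

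Rora, Id2, Il2ra and Tbx21 were not, while Tcf7 in B and stromal cells was near the highest Gata3 background. Rora was at 29.9 and 44.9 CPM in stromal cells and at 15.6 and 45.8 in endothelial cells, where every other member but Id2 stayed under 10 CPM. Id2 reached 370 and 444 CPM in dendritic cells, where it is known to act in development, and 148 and 164 in macrophages. Dendritic cells were thus near the gates in Id2. Il2ra was at 29.6 and 31.3 CPM in B cells, and in macrophages at 0 counts in both libraries. Tcf7 was at 3.42 and 4.20 CPM in B cells and 3.61 and 4.77 in stromal cells, and in dendritic cells at 32.6 in LFD (15 counts) but 3.46 in HFD (2 counts). Tbx21 was at 7.41 (26 counts) and 6.54 (14 counts) CPM in B cells, close to its 6.18 CPM in LFD Cd3+ cells, and T-bet is known from a subset of B cells. In Cd3+ cells of one lineage it was at 13.9 CPM (4.53 to 32.5, 5 counts) in LFD and 4.11 (1 count) in HFD, so no difference from B cells was detectable at this depth. Of the 6 genes of the type 2 gate, Il7r was seen in 13.7% (LFD) and 18.8% (HFD) of macrophages. In stromal cells Areg was seen in 3.03% and 4.78% and Il1rl1 in 2.77% and 3.02%. Il5, Il13 and Il17rb were seen in at most 0.625% of the cells of a class.

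**Figure D3:**
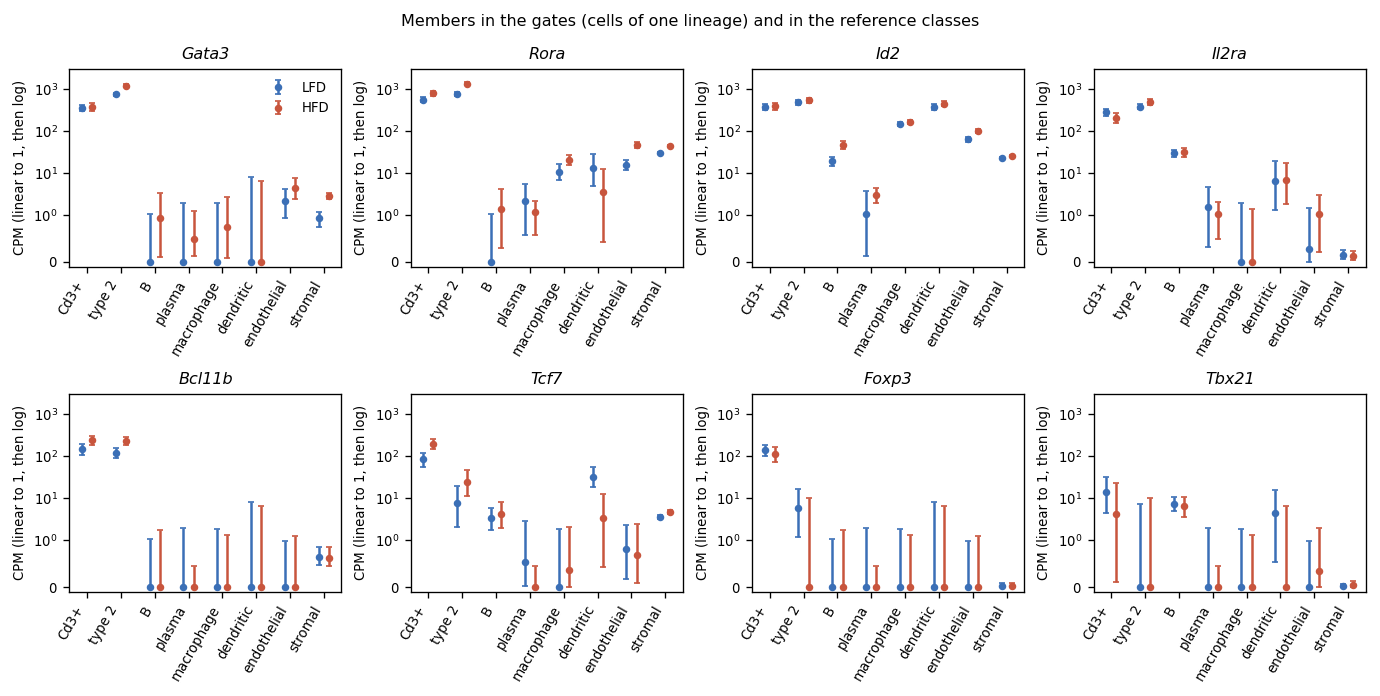
CPM of the 8 genes in the gates (cells of one lineage) and in the reference classes of the LFD (blue) and HFD (red) libraries, on an axis that is linear up to 1 CPM and logarithmic above; bars are exact 95% Poisson intervals. Foxp3 and Bcl11b were at or near 0 outside the gates, Id2 was also high in dendritic cells, and Rora was also found in stromal and endothelial cells.

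Among Cd3+ cells of one lineage, those that also carried 2 or more of the 6 type 2 genes (44 of 99 in LFD, 30 of 80 in HFD) differed in the members from those that carried fewer. The former were deeper, at median UMIs of 3953 against 1892 in LFD and 3192.5 against 1805 in HFD, so levels rather than shares are compared. Gata3 was at 516 (420.4 to 627) against 159 (104 to 234) CPM in LFD and at 692 (546 to 865) against 106 (58.1 to 178) in HFD. Il2ra was at 424 against 104 in LFD and at 386 against 53.1 in HFD, and Rora at 756 against 313 and at 1231 against 425. None of these pairs of intervals overlapped.

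Tcf7 had the opposite place. It gave 0 counts in the 44 LFD cells with type 2 genes, against 30 counts (184 CPM) in the 55 without, and 44.9 CPM (14.6 to 105) against 326 (236 to 440) in HFD. Tbx21 gave 0 counts in the cells with type 2 genes of both diets, and 5 and 1 in the others. Foxp3 was seen on both sides, at 169 (116 to 237) against 104 (60.7 to 167) CPM in LFD and at 180 (110 to 278) against 53.1 (21.4 to 109) in HFD. Bcl11b was at 123 against 172 CPM in LFD and 288 against 197 in HFD, with overlapping intervals in both. The Cd3+ cells thus ranged from Gata3, Rora and Il2ra with type 2 genes to Tcf7 without them. Bcl11b was found on both sides, as it was in the type 2 gate. Of the Cd3+ cells of one lineage, 22 of 99 in LFD and 24 of 80 in HFD held only 1 Cd3 UMI. No class rule covered ILC2s, so whether ILC2s or doublets with a Cd3 UMI were among the cells with type 2 genes was not tested.

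**Figure D4:**
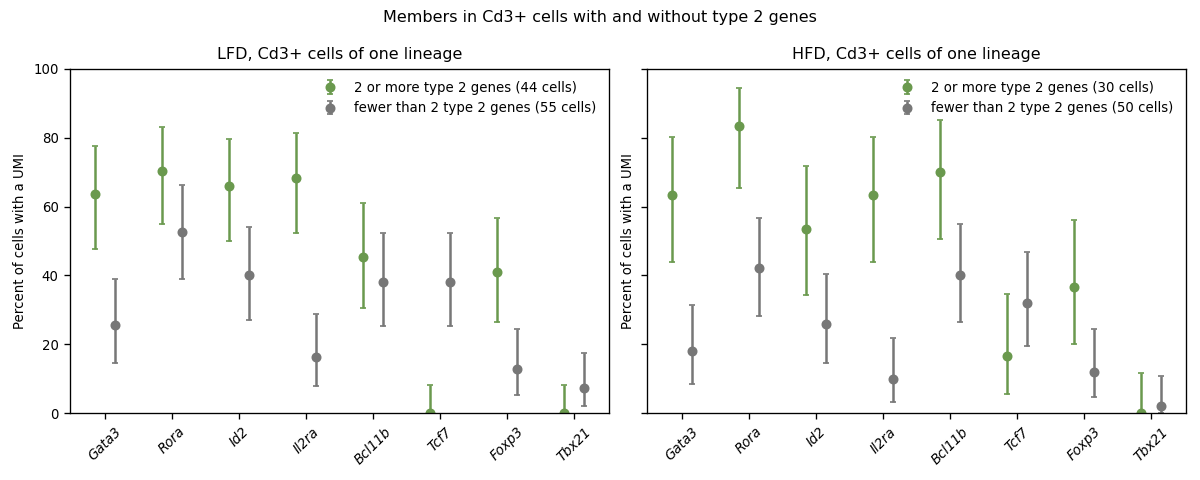
Percentage of Cd3+ cells of one lineage with a UMI of each gene, for cells with 2 or more of the 6 type 2 genes (green) and with fewer (grey), in LFD (left) and HFD (right); bars are exact 95% binomial intervals and shares are not thinned. No LFD cell with type 2 genes held a Tcf7 UMI, against 38.2% of those without.

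The cells with a Foxp3 UMI (25 in LFD and 17 in HFD, of one lineage) carried other regulatory T cell transcripts. Ikzf2, which codes for Helios, was in 20 of 25 and 17 of 17 of them, against 28.4% and 46.0% of Cd3+ cells without Foxp3. Ctla4, an inhibitory receptor, was in 18 of 25 and 9 of 17, against 37.8% and 27.0%. Il1rl1 was in 16 of 25 and 9 of 17, against 33.8% and 27.0%, and Gata3 in 13 of 25 and 8 of 17. The median depth was 3069 against 2427.5 UMIs in LFD and 1953 against 2231 in HFD. Il2ra was in 15 of 25 LFD but 7 of 17 HFD cells with Foxp3, Tcf7 in 2 of each, and Cd8a in none. Id2 was at 518 (388 to 677) CPM with Foxp3 against 312 (247 to 388) without in LFD, and at 357 against 394 in HFD.

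The cells with a Tcf7 UMI (21 in each library) had a median of 2027 UMIs in LFD and 2834 in HFD, against 2767.5 and 1901 in those without. Il2ra was in 1 of 21 LFD and 5 of 21 HFD cells, against 48.7% and 32.2% of cells without Tcf7, and Gata3 in 5 and 6 of 21, against 47.4% and 37.3%. These shares were not thinned and the depth difference ran in opposite directions in the libraries, so the gaps are not compared between diets. Rora was in 14 and 11 of 21, close to the 59.0% and 59.3% of cells without Tcf7. Klrg1, a receptor of differentiated T cells and ILC2s, was in 1 and 0 of 21, and Il1rl1 in 0 and 4. Lef1, the close relative of TCF1, was in 7 of 21 in both libraries, against 15.4% and 20.3%. Of Cd3+ cells of one lineage with a Cd8a UMI, 4 of 4 in LFD and 1 of 2 in HFD also held Tcf7, and over all Cd3+ cells 4 of 6 and 3 of 6.

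Gata3, Rora and Id2 were found together in the same cell in 66 of 92 LFD (71.7%) and 59 of 90 HFD (65.6%) type 2 gate cells of one lineage, and in 27 of 99 (27.3%) and 16 of 80 Cd3+ cells. Only 1.09% and 1.11% of those type 2 gate cells held none of the 8 members, against 11.1% and 8.75% of the shallower Cd3+ cells. Over all gate cells, 22.2% of LFD and 37.9% of HFD Cd3+ cells held none.

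The other genes of these lineages, listed by role with earlier results of these data known, were counted in the same way, in cells of one lineage first, where 7.07% of all genes were past 2-fold higher and 4.13% lower in Cd3+ cells in LFD, and 7.93% and 6.81% in HFD. Of 12 T cell genes with enough counts in cells of one lineage, 10 were past 2-fold higher in Cd3+ than in type 2 gate cells in LFD and 11 in HFD, with a median log2 ratio of 3.81 and 3.82 against 0.10 and 0.08 over all genes. Cd6, an adhesion coreceptor, was 69.1-fold (11.8 to 2784) higher in LFD and 41.7-fold (6.90 to 1707) in HFD, each against 1 count in the type 2 gate. Over all gate cells 9 of 13 were higher and 1 lower in LFD, and 8 and 1 of 13 in HFD. The 1 lower in HFD in cells of one lineage was Tcrg-C1, a T cell receptor γ constant gene, at 32.9 against 71.8 CPM. Of 8 ILC2 genes not used by the gate, 4 were lower in Cd3+ cells in LFD and 7 in HFD and none higher, at a median of -0.97 and -1.48, and over all gate cells 7 of 8 and 8 of 8 were lower. Calca, which codes for the neuropeptide CGRP, was at a ratio of 0.429 (0.349 to 0.523) and 0.130 (0.0812 to 0.200), and Hs3st1, a heparan sulphate sulphotransferase, at 0.331 and 0.171.

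Of the regulatory T cell genes 6 of 10 were higher in LFD and 5 of 8 in HFD, and none lower, at a median of 1.37 and 1.53, and over all gate cells 5 of 10 were higher and 1 lower in LFD and 5 of 11 higher and 2 lower in HFD. Ctla4 was 34.0-fold (15.3 to 94.3) and 15.3-fold (7.07 to 39.5) higher in Cd3+ cells, Tnfrsf4, the OX40 receptor, 28.0-fold and 30.2-fold, and Ikzf2, which is also on the list of other transcription factors, 12.0-fold (7.87 to 19.2) and 7.59-fold (5.49 to 10.7). Of the IL-2 receptor and signalling genes 2 of 9 were higher and none lower in LFD and 3 of 8 higher and 1 lower in HFD, at a median of 0.07 and -0.02. Over all gate cells 1 was higher and 1 lower of 10 in LFD and none higher and 3 lower of 10 in HFD, so the HFD calls leaned the other way in this set, in which 6.68% of all genes were higher and 19.9% lower (4.92% and 3.89% in LFD). Stat5a, a transducer of the receptor, was 3.70-fold (1.47 to 10.5) and 4.26-fold (1.73 to 11.9) higher in Cd3+ cells, and Socs2, a feedback inhibitor of cytokine signalling, was at 0.513 and 0.330. The β chain gene Il2rb was at 1.73 (1.19 to 2.53) and 2.52 (1.75 to 3.67), against the direction of Il2ra. Of 14 other lymphoid transcription factors, 4 were higher and 1 lower in LFD and 4 higher and 2 lower in HFD, and over all gate cells 2 higher and 1 lower of 16 in LFD and 4 higher and 9 lower of 18 in HFD. Lef1 was 5.99-fold (2.40 to 17.9) and 6.26-fold (2.30 to 21.2) and Klf2, a factor of recirculating T cells, 2.06-fold and 4.12-fold higher in Cd3+ cells, while Zeb2 was at 0.232 in HFD. Eomes, a T-box factor of cytotoxic lymphocytes, gave 5 counts in LFD Cd3+ cells of one lineage and 0 in the other gates of one lineage.

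Between diets the ratios of the members in the Cd3+ gate differed with the set of cells. Those of Foxp3 and Il2ra lay below 1 in both sets, but their intervals in cells of one lineage included 1. Over all Cd3+ cells, 4 of 7 members were past 2-fold lower in HFD and none higher (Gata3, Foxp3, Id2 and Il2ra), against 14.8% of 9300 genes in either direction, 4.44% higher and 10.4% lower. The median of all genes was at -0.26 on the log2 scale, and with median-ratio scaling 651 genes were higher and 551 lower and 1 member, Il2ra at 0.493, was past 2-fold. Gata3 was at 66.4 CPM in HFD against 154 in LFD, a ratio of 0.432 (0.344 to 0.543), Id2 at 0.459 (0.372 to 0.567), Il2ra at 0.412 (0.314 to 0.538) and Foxp3 at 0.422 (0.276 to 0.642). Rora was at 0.554, Bcl11b at 0.610 and Tcf7 at 0.971 (0.638 to 1.501).

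In Cd3+ cells of one lineage, 1 of 7 members was past 2-fold, Tcf7 with a higher level in HFD, against 10.6% of 4196 genes (6.08% higher, 4.53% lower). Tcf7 was at 197 CPM (48 counts) in HFD against 83.6 (30 counts) in LFD, a ratio of 2.36 (1.47 to 3.86). Gata3 was at 374 against 354, a ratio of 1.06 (0.799 to 1.40), Id2 at 1.03 (0.783 to 1.36) and Foxp3 at 0.797 (0.480 to 1.30), none beyond counting error. Rora at 1.43 (1.17 to 1.75) and Bcl11b at 1.65 (1.11 to 2.44) were higher in HFD beyond counting error, and Il2ra was at 0.738 (0.515 to 1.05). Rora and Bcl11b thus lay below 1 over all Cd3+ cells and above 1 once cells of another class were left out. For Gata3 and Id2 no side of 1 can be given in cells of one lineage, since 1 HFD cell held 26 of the 93 Id2 counts and another held 11 of the 91 Gata3 counts, and without that cell the ratio was 0.769 (0.565 to 1.04) for Id2 and 0.971 (0.725 to 1.29) for Gata3. In the 92 plasma-rule cells of the HFD gate, Gata3 was at 10.4 CPM, Rora at 13.8, Bcl11b at 4.84, Foxp3 at 3.46 and Id2 at 18.0, under the level of the whole gate in each case, and their part in the diet ratios was not tested. Without replicates, these ratios compare 2 libraries, and diet cannot be told apart from library.

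In the type 2 gate 1 of 6 members, Tcf7, was past 2-fold over all cells, against 11.0% of 8509 genes, 8.10% higher and 2.90% lower (median of all genes 0.12 on the log2 scale). With median-ratio scaling these shares were 6.08% and 3.95%, and Tcf7 was at 1.86. The unscaled Tcf7 ratio of 2.02 (0.730 to 6.42) rested on 14 against 6 counts and did not exceed counting error. Gata3 was at 469 CPM in HFD against 455 in LFD, a ratio of 1.03, and Rora at 1.08. In cells of one lineage none of 5 members was past 2-fold, against 13.4% of 4928 genes (7.69% higher, 5.66% lower). The interval lay above 1 for 4 of the 5, and the share of all genes for which it did so was not counted. The median log2 ratio was 0.68 for the members against 0.06 over all genes. It was 0.37 to 0.63 for the other gene lists described below, so a rise was not particular to the members. Gata3 was at 1189.7 against 740.1 CPM, a ratio of 1.61 (1.40 to 1.85), Rora at 1.74 (1.52 to 2.00), Bcl11b at 1.93 (1.37 to 2.72) and Il2ra at 1.28 (1.04 to 1.58). Id2 was at 1.12 (0.924 to 1.36). Il2ra and Id2 were lower in HFD over all type 2 gate cells, at 0.753 (0.621 to 0.912) and 0.818 (0.696 to 0.961). In cells of one lineage the Id2 ratio was within counting error. The Il2ra ratio there lay above 1, but without the HFD cell with the most Il2ra counts it was 1.23 (0.991 to 1.52), within counting error.

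**Figure D5:**
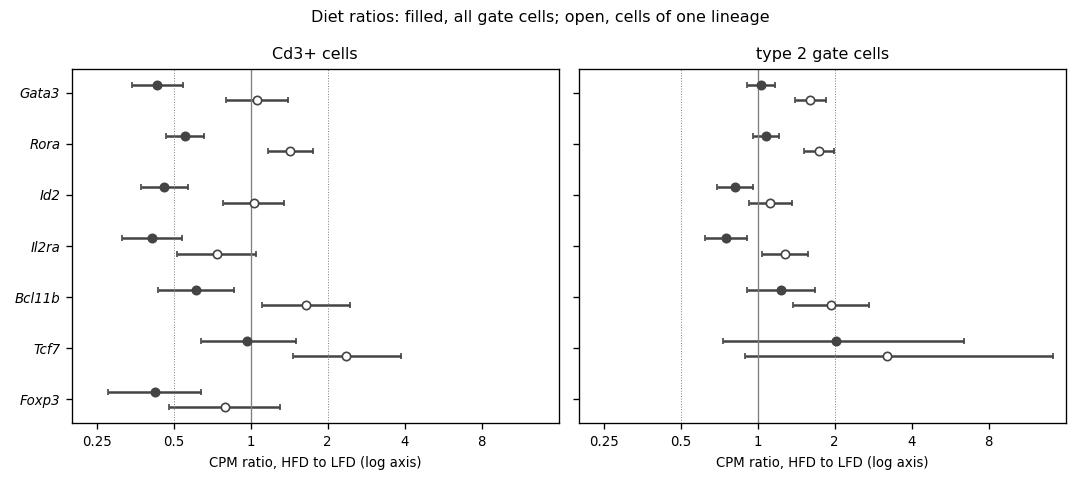
CPM ratio of HFD to LFD (log axis) of each gene in Cd3+ cells (left) and type 2 gate cells (right), for all gate cells (filled) and cells of one lineage (open), with exact 95% intervals that cover counting error only. Dotted lines mark 2-fold, and genes with under 20 counts in both sets are not drawn. The open Tcf7 point of the type 2 gate rests on 9 against 4 counts, under that minimum. In Cd3+ cells Gata3 moved from 0.432 to 1.06 and Rora from 0.554 to 1.43 between the sets.

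Between diets the listed genes were read against all genes, of which 4.44% were higher and 10.4% lower in HFD over all Cd3+ cells, and 6.08% and 4.53% in those of one lineage. Over all Cd3+ cells 8 of 14 T cell genes were lower in HFD and none higher, but none of 13 was past 2-fold in cells of one lineage. Of the regulatory T cell genes 1 of 10 was higher and 3 lower over all Cd3+ cells, and 1 of 9 higher and none lower in cells of one lineage. Il10 was 8.43-fold (4.72 to 16.6) and Prdm1, the factor of plasma cell differentiation and of effector lymphocytes, 4.19-fold (2.23 to 8.70) higher in HFD over all Cd3+ cells, of which 43.6% met the plasma cell rule in HFD and 11.1% in LFD. In cells of one lineage both had under 20 counts, Il10 with 1 in HFD and 9 in LFD and Prdm1 with 9 and 5. Of the other transcription factors, Prdm1 among them, 2 of 17 were higher and 3 lower over all Cd3+ cells, with Batf at 0.315 and Id3 at 0.328, and none of 13 was past 2-fold in cells of one lineage. Of the ILC2 genes 3 of 6 were lower in HFD over all Cd3+ cells and 2 of 5 in those of one lineage, and none was higher in either set, with Calca at 0.166 (0.118 to 0.231) and 0.263 (0.161 to 0.412) and Klrg1 at 0.248 (0.179 to 0.341) and 0.482 (0.315 to 0.721). In type 2 gate cells of one lineage, where 7.69% of all genes were higher and 5.66% lower, 1 of 8 ILC2 genes was past 2-fold, Csf2, the cytokine GM-CSF, at 442 against 36.8 CPM (160 counts in 30 of 90 cells against 19 counts in 12 of 92), a ratio of 12.0 (7.44 to 20.4), and over all type 2 gate cells its ratio was 6.07 (4.01 to 9.54). Of 13 other transcription factors there, 3 were higher and 2 lower in HFD, against none higher and 1 lower of 15 over all type 2 gate cells. Ikzf2 was at 2.67 (1.59 to 4.58) and Satb1 at 2.18 (1.501 to 3.19), and Klf2 was at 0.457 and Batf at 0.424 (0.216 to 0.784). In the same cells 2 of 7 regulatory T cell genes (Nt5e and again Ikzf2) and 2 of 5 T cell genes (Tcrg-C1 and Lat) were higher in HFD, and none lower. Over all type 2 gate cells none of these 2 lists was higher, and 1 of 7 regulatory T cell genes was lower. Of the IL-2 receptor and signalling genes 2 of 10 were lower in HFD over all Cd3+ cells, the feedback inhibitors Socs3 at 0.352 (0.260 to 0.473) and Socs1 at 0.456 (0.286 to 0.724). In Cd3+ cells of one lineage 1 of 9 was higher, Stat5b at 2.04 (1.12 to 3.76), and 1 lower, Socs3 at 0.492 (0.140 to 1.42) within counting error, and in the type 2 gate none was past 2-fold in either set.

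Over 17 pools (both gates and the reference classes of each library), the genes with the most alike log2(CPM + 1) pattern among 15020 were found by Pearson correlation, given here as a description over pools that share libraries. Bcl11b was most like Skap1 (0.994), Cd96 (0.993) and Cxcr6 (0.992), and Gata3 most like Cxcr6 (0.962), Bcl11b (0.959) and Skap1 (0.959), so these members were nearest to each other's partners. Foxp3 was most like Sh2d1a (0.991), Themis (0.974) and Trac (0.970), and Il2ra like Tespa1 (0.979), Prkcq (0.952) and Sh2d2a (0.946). Id2 was most like Apaf1 (0.957), Arl6ip1 (0.934) and Ifngr1 (0.932), and Rora like Smap1 (0.924), Xkr6 (0.912) and Eya2 (0.899). The lowest of the highest correlations were those of Tbx21, with Slamf1 (0.916), Whrn (0.889) and Spib (0.878), and of Tcf7, with Nipal1 (0.886), Gstcd (0.874) and Tnfrsf4 (0.868).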

How the data were processed

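Single-cell counts were measured in 2 libraries, 1 per diet. The authors deposited raw UMI counts per gene and cell; per the labels' processing notes the tools were bcl2fastq 2.17.1.14, STAR, Cell Ranger 4.0.0 and Seurat 4.1.0, with mm10, and the annotation is not given in the sources used here. Cells with 500 to 40000 UMIs, under 12.5% mitochondrial UMIs and at least 100 genes were kept, doublets included; removal by Scrublet score (scanpy 1.11.5) was an alternative. Counts were summed per library and gate as CPM, with exact Poisson, binomial (Clopper-Pearson) and conditional binomial 95% intervals (scipy 1.17.1, numpy 2.4.6, python 3.11.15), which cover counting error only. A call was a CPM ratio past 2-fold among genes with at least 20 counts; a gate at 0 was set to a floor of 3 counts. Libraries had 114311020 (LFD) and 119498750 (HFD) UMIs. The 8 members are always named; of each list up to 4 genes with the largest ratios whose interval excludes 1 could be named, and any other gene was chosen after its values were seen. Members and lists were chosen with earlier results of these data known. The ratio and interval code was tested on simulated data. Replicates, and so tests, could not be had.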

Additional observations from a re-analysis of the deposited data

How the results depend on the processing

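No paired analysis was possible because each diet has 1 library, and for the same reason no replicate could be left out. The gate shares moved with the gate. In LFD and HFD, Cd3+ cells were 0.959% and 1.16% with at least 2 Cd3 UMIs, 0.969% and 0.937% without cells of another class rule, 1.27% and 2.14% with a Ptprc UMI, 1.94% and 3.15% under 5% mitochondrial UMIs, and 1.05% and 1.22% with a Cd3d or Cd3e UMI. Type 2 gate cells were 0.901% and 1.05% without cells of another class rule, 0.949% and 1.21% with Ptprc, 1.03% and 1.07% with 3 of the 6 genes, 0.803% and 0.750% without Areg and Il7r, and 0.532% and 0.737% under 5% mitochondrial UMIs. Members past 2-fold between the gates were 3 in LFD with 2 Cd3 UMIs, without other classes or with Ptprc, and 4 in HFD without other classes, where Bcl11b was at 1.03, within counting error. Between diets in Cd3+ cells the count was 1 with 2 Cd3 UMIs, without other classes or with median-ratio scaling, and 0 with the mean of per-cell CPM or with a Cd3d or Cd3e UMI. Without other classes the diet ratio in Cd3+ cells turned to 1.43 for Rora and 1.65 for Bcl11b. It was 1.06 for Gata3 and 1.03 for Id2, for which no side of 1 can be given. With a Cd3d or Cd3e UMI the value was 1.10 for Gata3, 1.32 for Rora and 1.03 for Bcl11b. In type 2 gate cells the count was 0 without other classes, with Ptprc, without high Scrublet scores, without Areg and Il7r, with median-ratio scaling, with the mean of per-cell CPM, with at least 50 counts or without shared barcodes, and 2 under 5% mitochondrial UMIs or with no minimum. There the diet ratio of Id2 was 1.12 without other classes, 1.11 with Ptprc and 1.07 with 3 genes. It was 1.02 without Areg and Il7r and 1.15 with the mean of per-cell CPM. Il2ra was at 1.28 without other classes, 1.26 with 3 genes and 1.27 without Areg and Il7r. All of these lay above 1 by value, and the main ratios of both genes lay below 1. The cause of these shifts was not tested. Of 425 alternative values of the member ratios, 286 moved by less than counting error and 123 by more. The other 16 lay, by value alone, on the other side of 1 from a main interval that excluded 1. In cells of one lineage, 130 of 137 values under the other scalings or without the cell with the most counts of the gene stayed within counting error and none turned beyond it. The Cd3d or Cd3e gate, the shared barcodes, the scalings within one lineage, the cells with the most counts and Cd3+ cells with fewer type 2 genes were chosen after seeing the data. Depth limits Tbx21, with at most 7 counts in a gate.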
